A study of Mus musculus with 15 samples.

Results

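The early growth response (Egr) transcription factors and the Nab corepressors that bind them were followed in cultured mouse oligodendrocyte lineage cells with and without the transcription factor SRF. The group was defined by name as Egr1, Egr2, Egr3, Egr4, Nab1 and Nab2, and all 6 were found once each, by symbol, among the 45706 genes quantified in every library. PolyA RNA of 15 culture samples was sequenced. All cells were oligodendrocyte precursor cells (OPCs) purified by immunopanning, a capture on antibody-coated dishes, from brains of mice with both Srf alleles floxed, so that controls and knockouts share the floxed genotype and differ in the virus given. The SRF-KO OL group (n = 4) received a lentivirus encoding Cre and GFP on day 6 and was frozen on day 3 of differentiation into oligodendrocytes (OLs), and the control OL group (n = 4) received a GFP lentivirus and was treated alike. The SRF-KO OPC group (n = 3) received an AAV DJ vector with eGFP-Cre under the CMV promoter on day 3 of culture, and the control OPC group (n = 4) a matching vector with a deleted Cre. These OPCs were infected in proliferation medium and frozen 48 hours later. No group without floxed alleles received Cre, so an effect of Cre itself cannot be told apart from loss of SRF, and the stages also differ in vector and in time after infection. The ages of the mice are not given in the labels, and nothing says that replicates came from separate animals or cultures, so p-values measure the spread between these libraries, which may be technical.

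EGR proteins are zinc-finger transcription factors of the immediate-early class. Growth factors acting through ERK kinases switch their genes on within minutes, without new protein synthesis, in large part through SRF and its ternary complex factor partners of the ELK family bound at serum response elements. NAB1 and NAB2 do not bind DNA; they attach to EGR1, EGR2 and EGR3 and recruit the NuRD chromatin remodelling complex, and NAB2 is itself induced by EGR proteins, which closes a negative feedback loop. EGR2, also called KROX20, is the main driver of myelination in Schwann cells of the peripheral nerve and works there together with NAB proteins, whereas oligodendrocytes of the brain rely on other factors.

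The genes lie apart in the genome except for 1 chromosome shared by Egr2 and Nab2. On build GRCm38 (GENCODE M21), Egr2 spans chromosome 10 from 67535475 to 67542188 on the plus strand, and Nab2 spans chromosome 10 from 127660918 to 127668568 on the minus strand. Egr1 lies on chromosome 18 from 34859823 to 34864984 (plus), Egr3 on chromosome 14 from 70077203 to 70082614 (plus), Egr4 on chromosome 6 from 85511121 to 85513589 (minus) and Nab1 on chromosome 1 from 52457294 to 52500679 (minus). All 6 are protein-coding. Nab2 overlaps the last 40 bases of Stat6, 1668 bases of Nemp1 and 1646 bases of the antisense gene Gm16229, all on the plus strand, and the libraries do not mark strand, so reads there could not be assigned with certainty.

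The expected counts summed to 4303739 to 11721394 per library in SRF-KO OLs and 7188698 to 13139258 in control OLs, and to 9074812 to 15125229 in SRF-KO OPCs and 8964310 to 16026511 in control OPCs. Levels below are normalised CPM, that is, expected counts scaled to a common library total, which was corrected by TMM factors computed within each stage. Srf averaged 3.06 ± 0.974 CPM in SRF-KO OLs and 8.27 ± 0.953 CPM in control OLs (SD, n = 4 each). It averaged 0.210 ± 0.0127 CPM in SRF-KO OPCs (SD, n = 3) and 7.86 ± 1.70 CPM in control OPCs (SD, n = 4), so that by pooled counts 36.9% of the control level was left in SRF-KO OLs and 2.74% in SRF-KO OPCs. The treatment tag of the SRF-KO OLs ends in the word control, and their Srf levels of 2.09 to 4.39 CPM lay below every control OL. In GENCODE M21 the lincRNA gene Gm26904 on the other strand overlaps all 7847 bases of Srf. Gm26904 averaged 12.6 CPM in SRF-KO OLs and 15.3 CPM in control OLs, against 0 CPM in control OPCs. How many OL reads of Srf come from it was not tested, so the share left in SRF-KO OLs is uncertain. OPC markers such as Pdgfra were detected in every group. The 10 OL markers summed to 14126 to 20560 CPM in SRF-KO OLs and 20863 to 39385 CPM in control OLs, against 534 to 571 CPM in SRF-KO OPCs and 487 to 528 CPM in control OPCs, where Mog was at 0. The 8 astrocyte markers reached 9022 to 14178 CPM in SRF-KO OLs and 17261 to 34668 CPM in control OLs, against 1786 to 1958 CPM in SRF-KO OPCs and 1664 to 1765 CPM in control OPCs. Gfap alone averaged 7471 CPM in SRF-KO OLs and 18700 CPM in control OLs. In bulk RNA, fewer cells of a type and less RNA per cell cannot be told apart.

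Promoter windows from RefSeq on GRCm38.p6, from 250 bases before to 50 bases after an annotated start, were held for 4 of the 6 genes: 5 windows for Egr2 and 1 each for Egr4, Nab1 and Nab2. Both strands were searched for the CArG box, the SRF-binding core of CC and GG around a run of A and T, for the EGR-type site GCGNGGGCG and for the cyclic AMP response element TGACGTCA. A CArG box stood in 4 of the 5 Egr2 windows and in none of the Egr4, Nab1 and Nab2 windows. Egr2 windows overlap, so the same box is counted in more than 1 of them. Over all 32851 windows 1.63% held a CArG box, and by gene 1.81% of 27025 genes did. The Egr2 windows hold 2 distinct CArG boxes, each 72 bases upstream of an annotated start, at 67537869 for the first shown and 67537566 for the second. The stretches around them lie in no annotated exon and are given 5′ to 3′ on the plus strand with the CArG box in capitals, since this is the element through which SRF is known to bind.
Egr2 chr10:67537749-67537838: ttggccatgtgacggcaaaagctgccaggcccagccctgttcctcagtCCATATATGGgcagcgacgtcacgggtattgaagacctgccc
Egr2 chr10:67537456-67537525: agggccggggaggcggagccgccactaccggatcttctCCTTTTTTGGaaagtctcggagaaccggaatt
The Nab1 window holds 3 EGR-type sites, a motif found in 5.55% of all windows, while the Egr2, Egr4 and Nab2 windows hold none. They start 141, 109 and 38 bases upstream of the RefSeq start at 52500448, inside an exon that GENCODE annotates there. They are given 5′ to 3′ on the gene's minus strand, with the site in capitals (the first reads as its reverse complement), because NAB genes are described as targets of the EGR proteins they restrain.
Nab1 chr1:52500572-52500598: ccccgcggcCGCCCACGCcgggatctg
Nab1 chr1:52500540-52500566: ctcggccgcGCGTGGGCGggagccgga
Nab1 chr1:52500469-52500495: cggggcgggGCGGGGGCGgcggaggtg
No window held TGACGTCA. A motif match is a string of letters and does not show binding, and its absence says only that these letters are not in the window. Egr1 and Egr3 are named only.

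In OPCs, every member that could be tested was lower in the SRF-KO group. The 5 tested members had log2 fold changes, SRF-KO over control, between -2.98 for Egr4 and -0.36 for Nab1, with a median of -0.70 against -0.001 over all genes tested. With edgeR's quasi-likelihood test and Benjamini-Hochberg adjustment, 1 of the 5, Egr1, passed an adjusted p of 0.05, where 0.0678% of the 13271 genes tested passed in either direction and 0.0452% passed as lower. All 5 had an unadjusted p under 0.05 in the lower direction, against 6.33% of genes tested, and in 4 of them every SRF-KO OPC library lay below every control OPC library, against 6.25% of genes tested. Egr3 had too few counts to test, and Egr4 passed the count filter only through its control libraries, where it was higher. Alongside, the 8 OPC markers summed to 5151 to 6755 CPM in SRF-KO OPCs and 6885 to 7251 CPM in control OPCs, and of the 8 astrocyte markers 5 had an unadjusted p under 0.05 as higher, against 5.57% of genes tested, and 1, Sox9, as lower (log2 -0.35). No marker of either list passed adjustment, and their part in the Egr and Nab values was not tested. Microglia markers were near absent from the OPCs, with 9 of 10 at 0 in SRF-KO OPCs and 8 of 10 at 0 in control OPCs.

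Egr1, the most studied member and a classical SRF target in fibroblasts and neurons, fell by about the same amount in each knockout library. It stood at 155, 169 and 175 CPM in the 3 SRF-KO OPC libraries, against 282, 272, 260 and 259 CPM in the 4 control OPC libraries. The groups are widely separated: the highest knockout library is well below the lowest control, and the spread within either group is small. The means were 166 ± 9.98 CPM in SRF-KO OPCs (SD, n = 3) and 268 ± 10.9 CPM in control OPCs (SD, n = 4), a log2 fold change of -0.69 (SE 0.080) with adjusted p = 0.0152, which ranked Egr1 as the second smallest p of the comparison, after Srf. About 62.0% of the control level thus remained by pooled counts (95% interval 60.1% to 63.9%, exact binomial, counting error only) while Srf itself was at 2.74%. The call was not stable to leaving out 1 library: it held in 2 of 7 cases, with adjusted p from 0.0258 (without SRF-KO OPC replicate 2) to 0.0918 (without SRF-KO OPC replicate 3). It was lost without control OPC replicate 1, 2 or 4 and without SRF-KO OPC replicate 1 or 3. The log2 fold change stayed between -0.72 and -0.64 in all 7.

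Egr2 had a larger log2 difference than Egr1 and narrowly missed the threshold. It stood at 5.52, 5.30 and 3.11 CPM in SRF-KO OPCs, against 10.4, 16.3, 14.2 and 18.2 CPM in control OPCs. All 3 knockout libraries were below the lowest control, which was replicate 1. Means were 4.64 ± 1.33 CPM in SRF-KO OPCs (SD, n = 3) and 14.8 ± 3.33 CPM in control OPCs (SD, n = 4), and the log2 fold change was -1.66 (SE 0.26). With edgeR its adjusted p was 0.0559, rank 11 of 13271. It passed with DESeq2 (adjusted p = 4.01e-06), with scaling by library totals (adjusted p = 0.0449) and without the filter on low counts (adjusted p = 0.000541), and the range over all alternatives was 4.01e-06 to 0.223. In pooled counts, 160 in SRF-KO OPCs against 739 in control OPCs, Egr2 was at 32.1% of control (95% interval 26.9% to 38.2%). The CArG box stretches printed above belong to this gene, and whether they have a part in these values was not tested. The Egr4 and Nab2 windows hold no CArG box.

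Egr4, best known from neurons and male germ cells and lacking the domain through which its relatives bind NAB proteins, was close to the detection limit in SRF-KO OPCs. Its expected counts were 1, 0 and 8 in SRF-KO OPCs, against 38, 37, 15 and 29 in control OPCs. The knockout libraries are not alike: replicate 3 holds 8 of the 9 counts, yet it too lies below every control. Means were 0.323 ± 0.467 CPM in SRF-KO OPCs (SD, n = 3) and 2.33 ± 0.499 CPM in control OPCs (SD, n = 4). The edgeR log2 fold change of -2.98 (SE 0.81, adjusted p = 0.226) did not pass, and with so few counts it depends on the fit's prior count. Leaving out SRF-KO OPC replicate 3, the library with most counts, moved it to -5.49, and leaving out replicate 2, the one at 0, moved it to -2.24. Pooled counts put Egr4 at 11.2% of control (95% interval 5.01% to 22.04%).

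Egr3, known for its role in muscle spindles and sensory innervation, was barely detected. It had expected counts of 1, 6 and 2 in SRF-KO OPCs and of 7, 7, 2 and 4 in control OPCs. The groups overlap, and no library holds more than 7 reads of this gene. Pooled, 9 counts against 20 put it at 66.8% of control with a 95% interval of 26.8% to 153%. A change within that interval was not detectable at this depth.

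Of the corepressors, Nab2 was clearly separated between the groups and Nab1 was not. Nab2 stood at 32.9, 23.5 and 33.7 CPM in SRF-KO OPCs, against 53.1, 48.3, 44.4 and 48.8 CPM in control OPCs. Each knockout library was below each control, with SRF-KO replicate 2 the lowest. Means were 30.0 ± 5.64 CPM in SRF-KO OPCs (SD, n = 3) and 48.6 ± 3.53 CPM in control OPCs (SD, n = 4), with a log2 fold change of -0.70 (SE 0.14), close in size to that of Egr1. The edgeR adjusted p of 0.117 (unadjusted p = 0.000308) missed the threshold, whereas DESeq2 gave adjusted p = 0.00325 and the fit without a count filter adjusted p = 0.0097. The overlapping gene Nemp1 averaged 21.1 ± 1.40 CPM in SRF-KO OPCs and 27.4 ± 2.51 CPM in control OPCs, a log2 fold change of -0.37 (SE 0.13, adjusted p = 0.32), and the share of Nab2 reads that come from it was not tested. Nab1 stood at 49.5, 45.9 and 37.7 CPM in SRF-KO OPCs, against 64.4, 47.3, 58.0 and 57.7 CPM in control OPCs. The highest knockout library exceeds the lowest control, so the groups overlap. Its log2 fold change of -0.36 (SE 0.13) had an edgeR adjusted p of 0.337 and did not pass with any alternative.

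**Figure D1:**
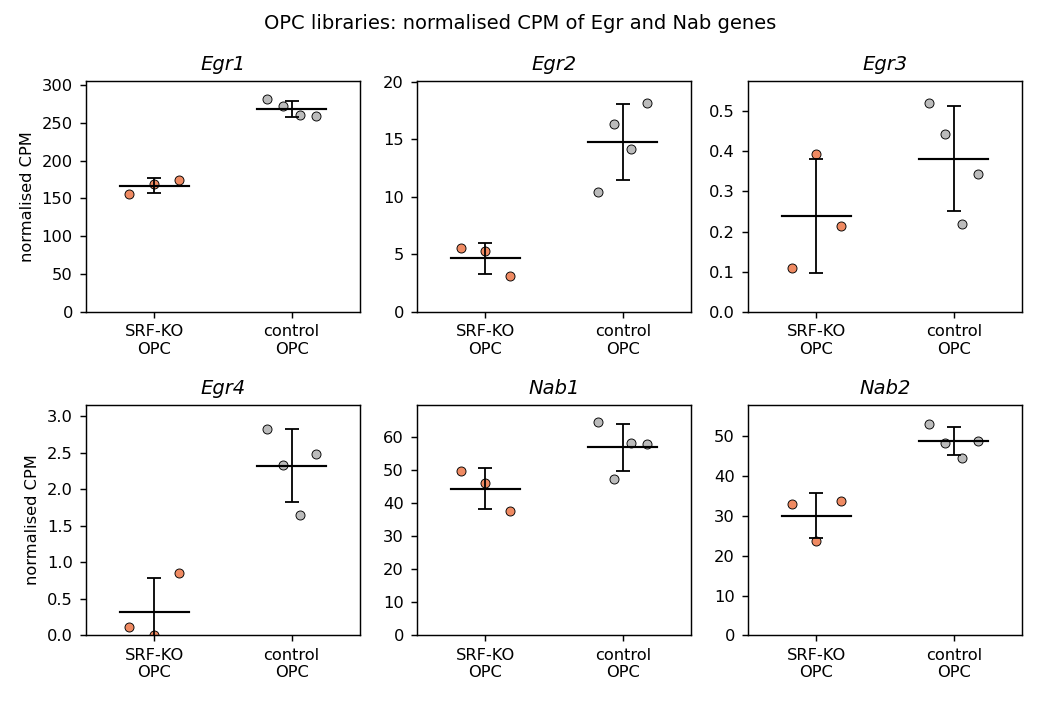
Normalised CPM (vertical axes, each from 0) of the 6 genes in the OPC libraries, with SRF-KO OPC (n = 3) on the left and control OPC (n = 4) on the right of each panel. Points are libraries, the long line is the mean and the bar is 1 SD. Egr1, Egr2, Egr4 and Nab2 have no knockout library at or above a control library, while Egr3 and Nab1 overlap.

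In OLs, no member changed by the test. Egr1, Nab1 and Nab2 had enough counts to be tested, and 0 of 3 passed an adjusted p of 0.05 with edgeR, where 0.296% of 15193 genes passed. None of the 3 had an unadjusted p under 0.05, against 11.6% of genes tested, and none passed with DESeq2 or limma voom. In none of the 3 did the groups stand apart, against 3.9% of genes with every knockout library lower and 4.19% with every one higher. OL markers moved alongside: 7 of the 10 had an unadjusted p under 0.05 as lower, the median was -0.74 and Opalin passed (log2 -1.37, adjusted p = 0.0228). The 8 astrocyte markers summed to less in every SRF-KO OL library than in any control OL library, a sum in which Gfap weighs most. Of the 8, only Gfap had an unadjusted p under 0.05 with edgeR (log2 -1.32, adjusted p = 0.125), and the median log2 fold change of the list was -0.20. What part these shifts have in the values below was not tested.

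Egr1 in OLs stood at 10.1, 14.3, 16.6 and 13.4 CPM in the SRF-KO libraries, against 11.9, 16.9, 15.1 and 14.9 CPM in the controls. Knockout and control libraries interleave over the same range. The means were 13.6 ± 2.69 CPM in SRF-KO OLs and 14.7 ± 2.09 CPM in control OLs (SD, n = 4 each). The log2 fold change was -0.12 (SE 0.18, adjusted p = 0.85 with edgeR), and its sign was not stable: it was 0.09 with scaling by library totals and 0.003 without SRF-KO OL replicate 1.

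The Nab1 difference had the opposite sign in OLs and did not pass. It stood at 39.4, 40.2, 36.3 and 28.2 CPM in SRF-KO OLs, against 27.3, 26.7, 30.7 and 31.9 CPM in control OLs. Knockout replicates 1 to 3 are above every control and replicate 4 lies within the control range. The means were 36.1 ± 5.47 CPM in SRF-KO OLs and 29.2 ± 2.57 CPM in control OLs (SD, n = 4 each), with a log2 fold change of 0.31 (SE 0.14, unadjusted p = 0.0501, adjusted p = 0.432 with edgeR). Scaling by library totals, which moves the median of all genes in OLs by 0.217, gave 0.52 with adjusted p = 0.179. Without SRF-KO OL replicate 4 the value was 0.39 with adjusted p = 0.0626, the lowest over all alternatives, whose adjusted p reached 0.769. That library had a total of 5133146 and the highest mitochondrial share of all, 14.2%, against 9.08% to 11.3% in the other SRF-KO OLs. Without it the count of genes called in OLs was 636 in place of 45.

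Nab2 was low in OLs, at 2.10, 3.31, 2.26 and 2.45 CPM in SRF-KO libraries, against 2.59, 2.91, 3.29 and 2.93 CPM in controls. Of the knockout libraries 3 lie below all controls, and replicate 2 lies above all of them. The log2 fold change was -0.18 (SE 0.24, adjusted p = 0.843 with edgeR) and turned to 0.03 with scaling by library totals. Leaving out SRF-KO OL replicate 2 moved it to -0.38 and leaving out SRF-KO OL replicate 1 to -0.08. The overlapping gene Nemp1 averaged 3.89 ± 0.43 CPM in SRF-KO OLs and 2.61 ± 0.30 CPM in control OLs. Its log2 fold change was 0.60 (SE 0.21, adjusted p = 0.293 with edgeR). The share of Nab2 reads in OLs that come from Nemp1 was not tested. Egr2 was nearly silent in both groups, with expected counts of 5, 13, 5 and 4 in SRF-KO OLs and of 7, 9, 2 and 6 in control OLs. Pooled, 27 counts against 24 gave 140% of control with a 95% interval of 77.8% to 254%, an interval that includes no change and covers counting error only. Egr4 had 1 count in all 4 SRF-KO OL libraries together and 2 in control OLs. Egr3 had 0 counts in SRF-KO OLs and 1 in control OLs. At 3 counts, the limit that a count of 0 allows in a single SRF-KO OL library is 0.239 to 0.616 CPM. The single counts of Egr3 and Egr4 lie below that limit, and no difference between the groups was detectable at this depth.

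**Figure D2:**
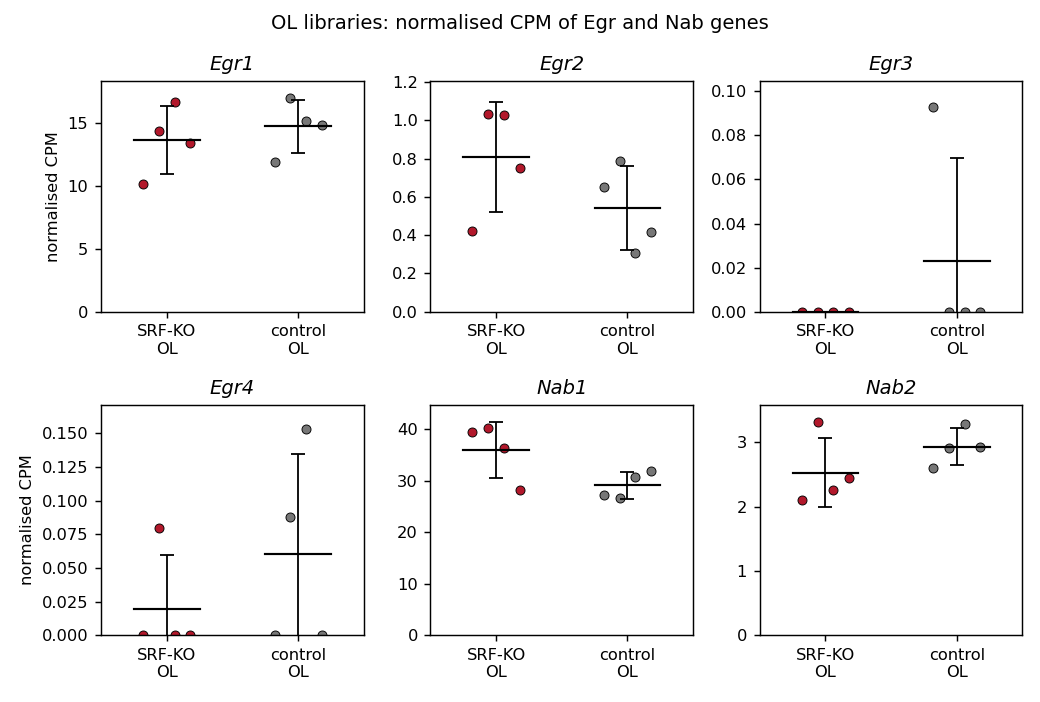
Normalised CPM (vertical axes, each from 0) of the 6 genes in the OL libraries, with SRF-KO OL on the left and control OL on the right of each panel (n = 4 each). Points are libraries, the long line is the mean and the bar is 1 SD. The groups overlap for Egr1, Egr2, Nab1 and Nab2, and the panels of Egr3 and Egr4 show single counts.

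Whether the knockout effect differs between stages was tested directly, as the difference between the log2 fold change in OLs and that in OPCs, over all 15 libraries. The difference was positive for all 5 members tested, against 8154 of all 16135 genes tested. That is, the knockout value was less negative in OLs or of the opposite sign. Egr2 and Egr4, untested within OLs, passed the count filter here through the OPC libraries. For Egr4 these were the control OPCs alone, where it is higher, so its sign was in part built into its being tested. None of the 5 passed an adjusted p of 0.05 with edgeR, where 0.112% of 16135 genes passed, and 3 had an unadjusted p under 0.05 as higher, against 4.6% of genes tested. Egr2 had the smallest p of the members, with a difference of 2.13 (SE 0.52, unadjusted p = 0.000688, adjusted p = 0.12), which passed with DESeq2 (adjusted p = 0.0281) and in no other alternative. Its OL side rests on few reads, 27 pooled counts in SRF-KO OLs and 24 in control OLs. The Nab1 difference was 0.65 (SE 0.21, adjusted p = 0.307) and the Egr1 difference was 0.55 (SE 0.20, adjusted p = 0.394). Nab2 had 0.52 (SE 0.25, adjusted p = 0.554), and Egr4 had 2.41 with an SE of 2.63, on 1 count in SRF-KO OLs. Leaving out 1 library gave Egr4 differences from 0.54 (without SRF-KO OL replicate 2) to 4.83 (without SRF-KO OPC replicate 3), and Nab2 differences from 0.31 (without SRF-KO OL replicate 2) to 0.63 (without SRF-KO OL replicate 1). Srf itself differed by 3.68 (SE 0.46, adjusted p = 0.00465), with a higher share of the control count in SRF-KO OLs than in SRF-KO OPCs. How many of the OL reads counted for Srf come from the overlapping lincRNA gene Gm26904 was not tested. The remaining Srf count, the vector and the time after infection change together with the stage, and their parts cannot be told apart.

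**Figure D3:**
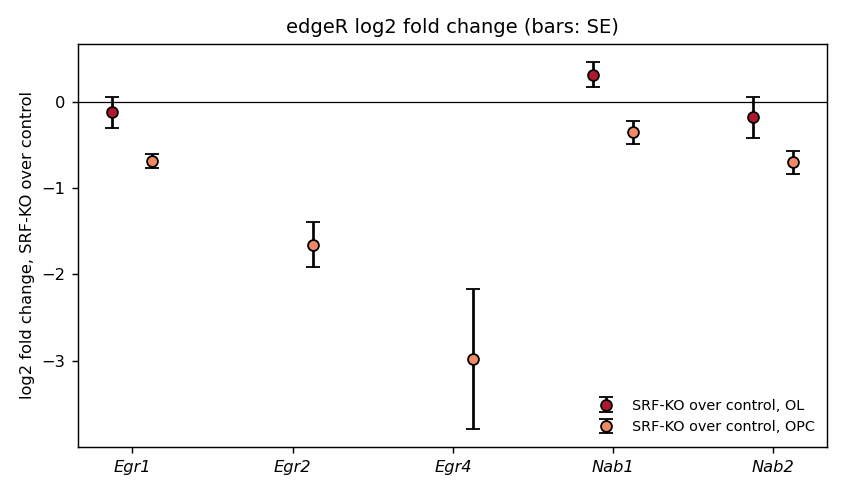
edgeR log2 fold changes, SRF-KO over control (vertical axis), of the members that could be tested, in OLs (left point of each gene, red) and in OPCs (right point, orange). Bars are 1 SE derived from the test. All 5 OPC values lie below 0, from -0.36 to -2.98, while the 3 OL values lie between -0.18 and 0.31.

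Across stages, every tested member was lower in OLs. Among the controls all 5 tested members passed as lower in control OLs than in control OPCs, where 37.1% of 15027 genes passed as lower and 79.7% passed in either direction. Egr2 and Egr4 passed the count filter only through the control OPCs, where they are high, so their lower call in OLs was built into their being tested. The fall was steep for Egr1, Egr2, Egr4 and Nab2 and shallow for Nab1. The control libraries here are those of the knockout comparisons, so the values are not independent of them. Gene models differ between the deposited files of the stages. For Nab1, OL files list lengths near the gene span of 43386 bases, introns included, and OPC files list lengths of spliced transcripts. Srf is listed with 9324 bases in OL files, more than its GENCODE M21 span of 7847 bases, and with 4093 bases in OPC files. Nab1 is listed with 33751 to 43007 bases in OL files and with 3643 to 3825 bases in OPC files. The stage comparison therefore also compares ways of counting, and their parts cannot be told apart. Microglia markers summed to 10.4 to 15.6 CPM in control OLs and 0 to 0.839 CPM in control OPCs, and the part of other cells in the stage values was not tested.

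Egr1 averaged 14.7 ± 2.09 CPM in control OLs and 268 ± 10.9 CPM in control OPCs (SD, n = 4 each), a log2 fold change of -3.94 (SE 0.12, adjusted p = 8.53e-12 with edgeR), and stood at 5.45% of the OPC level by pooled counts (95% interval 5.03% to 5.91%). Nab2 followed it closely, with 2.93 ± 0.285 CPM in control OLs and 48.6 ± 3.53 CPM in control OPCs, a log2 fold change of -3.81 (SE 0.13, adjusted p = 2.69e-11). The pooled shares of Egr1 and Nab2, 5.45% and 5.93%, have overlapping intervals, which cover counting error only. Whether the lower levels of Egr1 and Nab2 are linked was not tested. Nemp1, which overlaps Nab2, averaged 2.61 CPM in control OLs and 27.4 CPM in control OPCs. Egr2 averaged 0.541 ± 0.219 CPM in control OLs and 14.8 ± 3.33 CPM in control OPCs (log2 -4.46, SE 0.29, adjusted p = 1.1e-08), or 3.77% by pooled counts. Egr4 had 2 pooled counts in control OLs and 119 in control OPCs, 1.95% with a 95% interval of 0.234% to 7.21%. Both Egr2 and Egr4 were thus near the detection limit in OLs. Egr3 had 1 pooled count in control OLs and 20 in control OPCs, 5.81% with a 95% interval of 0.140% to 36.3%, and was not tested. Nab1 was the exception in size. It averaged 29.2 ± 2.57 CPM in control OLs and 56.9 ± 7.07 CPM in control OPCs (log2 -0.71, SE 0.11, adjusted p = 6.87e-05), with 51.9% left by pooled counts. CPM values and pooled shares here use TMM factors computed within each stage, while the edgeR fit used factors computed over both stages. In that fit the factors were 1.10 to 1.15 in control OPCs and 0.81 to 1.02 in control OLs. A share is therefore on another scale than the log2 fold change, and its interval does not cover this. Srf did not pass in this comparison, at 0.32 (SE 0.19, adjusted p = 0.14), and turned to -0.03 with scaling by library totals. That scaling moved the median log2 fold change over all genes by -0.34 in the stage comparison, and all 5 members stayed lower with it.

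The same shares were computed among the knockouts, again with TMM factors computed within each stage. By pooled counts Egr1 in SRF-KO OLs was at 7.83% of its level in SRF-KO OPCs, Nab2 at 9.02%, Egr2 at 16.4% and Nab1 at 84.2%. Egr4, with 1 count against 9, was at 10.8% with a 95% interval of 0.247% to 78.1%. Egr3, with 0 counts against 9, was at 0% with a 95% interval of 0% to 49.4%. These intervals carry counting error only. The change of a share between knockouts and controls is the same contrast as the difference in knockout effect between stages, which none of the 5 tested members passed.

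**Figure D4:**
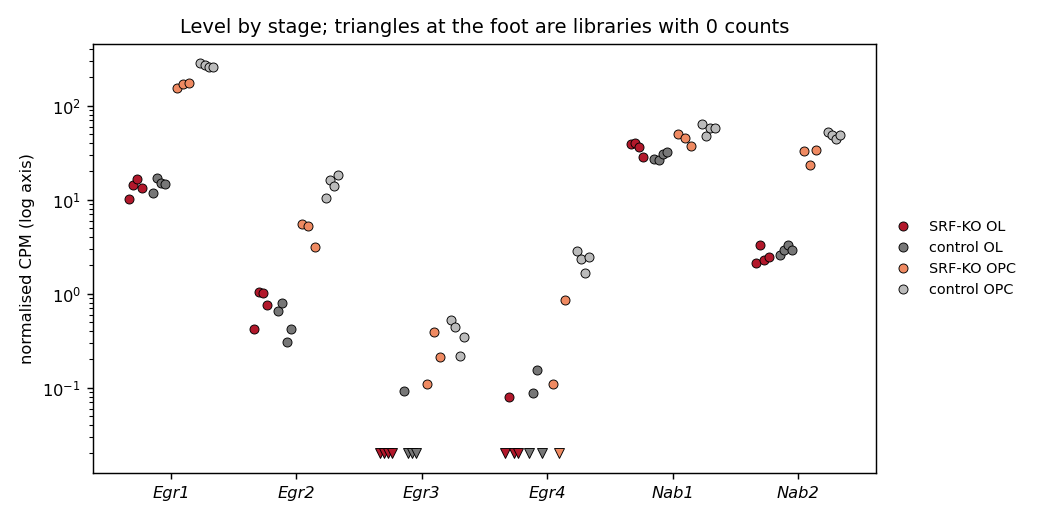
Normalised CPM on a log axis for each gene in SRF-KO OL, control OL, SRF-KO OPC and control OPC libraries, left to right within a gene. Points are libraries and triangles at the foot mark libraries with 0 counts. Egr1, Egr2 and Nab2 lie lower in every OL library than in any OPC library, while for Egr4 the lowest SRF-KO OPC points overlap the OL points, and the Nab1 points of the 4 groups lie close together, between 26.7 and 64.4 CPM.

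Levels were also compared per length, and in OLs the member that led depended on the length used. In SRF-KO OPCs the mean TPM values, the deposited measure of transcripts relative to length and library, were 75.5 for Egr1, 18.03 for Nab2, 16.4 for Nab1, 2.60 for Egr2, 0.263 for Egr3 and 0.227 for Egr4. In control OPCs they were 127 for Egr1, 30.3 for Nab2, 22.3 for Nab1, 8.39 for Egr2, 1.66 for Egr4 and 0.435 for Egr3. Neighbours in the control order had separate ranges throughout, while in SRF-KO OPCs the ranges of Nab2 and Nab1 overlapped, as did those of Egr3 and Egr4. Egr3 is listed with 1416 bases in OPC files and with 2713 bases in OL files, so its TPM depends on the gene model used. TPM of the OL files uses the lengths listed there, which for Nab1 come near its gene span. By that TPM Egr1 led in OLs too, with means of 9.93 in SRF-KO OLs and 8.7 in control OLs. Nab1 had 2.66 in SRF-KO OLs and 1.85 in control OLs. Because the lengths differ, OL levels were also set per kilobase of the length listed in OPC files. On that scale Nab1 led, with 9.64 CPM per kilobase in SRF-KO OLs and 7.79 in control OLs. Egr1 came next with 4.35 in SRF-KO OLs and 4.69 in control OLs, then Nab2 with 1.035 in SRF-KO OLs and 1.199 in control OLs, and Egr2 with 0.297 in SRF-KO OLs and 0.198 in control OLs. These neighbours had separate ranges within each OL group, and only Egr4 and Egr3, with means of 0.0093 and 0 in SRF-KO OLs and of 0.028 and 0.0164 in control OLs, overlapped. Nab1 is the longest of the 6 genes, and the share of its OL reads that lie in introns was not tested.

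Of the genes that act upstream of the EGR factors, Srf alone passed in SRF-KO OPCs. The list held 13 genes, for SRF, its ELK and MRTF partners, CREB1 and the ERK cascade, and 12 did not pass, with a median log2 fold change of -0.12 against -0.001 over all genes. Of the 13 NuRD subunits through which NAB proteins act, 0 passed, with a median of -0.11. The smallest p values were those of the deacetylase genes Hdac1, with a log2 fold change of 0.24 (adjusted p = 0.299), and Hdac2, with -0.34 (adjusted p = 0.394). Of 25 other immediate-early genes, 22 were tested and 0 passed, with a median of -0.06, 5 with an unadjusted p under 0.05 as lower and 3 as higher. Over all genes tested, 6.33% had such a p as lower and 5.57% as higher. Ier2, a growth factor-induced nuclear regulator, averaged 42.4 ± 1.88 CPM in SRF-KO OPCs and 59.8 ± 5.26 CPM in control OPCs (log2 -0.50, adjusted p = 0.15). Arc, a synaptic activity gene with known serum response elements, averaged 5.44 ± 2.47 CPM in SRF-KO OPCs and 13.3 ± 1.28 CPM in control OPCs (log2 -1.32, adjusted p = 0.172).

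No gene described as an EGR target in other cells passed in OPCs. Of 21 EGR1 targets, 18 were tested and 0 passed with edgeR, with a median of 0.02, 2 with an unadjusted p under 0.05 as lower and 3 as higher. Arc, counted in this list too, and the adhesion molecule gene Icam1 had the smallest p, and Icam1 averaged 10.0 ± 1.98 CPM in SRF-KO OPCs and 5.39 ± 1.95 CPM in control OPCs (log2 0.91, adjusted p = 0.303). Of 11 myelin and lipid genes that EGR2 activates in Schwann cells, 8 were tested and 0 passed, with a median of -0.09. The desaturase gene Scd2 had a log2 fold change of -0.22 (adjusted p = 0.301). Of 8 genes of immature Schwann cells that EGR2 represses, 0 passed, with a median of -0.07. Pou3f1 averaged 39.5 ± 14.2 CPM in SRF-KO OPCs and 69.6 ± 10.9 CPM in control OPCs (log2 -0.83, adjusted p = 0.22), and Sox2 had -0.39 (adjusted p = 0.375).

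**Figure D5:**
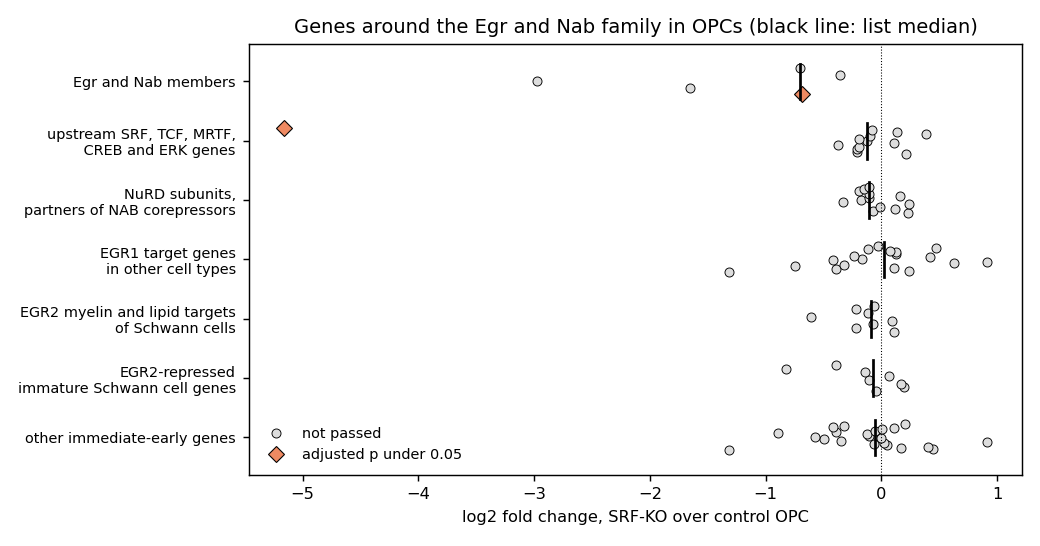
edgeR log2 fold changes, SRF-KO over control OPC (horizontal axis), of the tested genes of each list (rows). Each point is a gene, diamonds passed an adjusted p of 0.05 and black lines are list medians. The Egr and Nab row lies wholly below 0 with a median of -0.70, and the medians of the other rows lie between -0.12 and 0.02.

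In OLs the same lists held few calls. Of the 13 upstream genes Srf alone passed as lower (log2 -1.45, SE 0.22, adjusted p = 0.0224). With 1 library left out, that call held only without SRF-KO OL replicate 4 and without control OL replicate 4, with adjusted p up to 0.104 in the other 6 cases. None of the NuRD, EGR1 target, EGR2 target, EGR2-repressed or immediate-early genes passed with edgeR. The nearest was Cd44, a hyaluronan receptor gene among the EGR1 targets, with 375 ± 116 CPM in SRF-KO OLs and 977 ± 296 CPM in control OLs (log2 -1.38, adjusted p = 0.0694). The 11 EGR2-activated Schwann cell genes had a median of -0.30, against 0.02 over all genes. Among them, Mag, a myelin adhesion gene, averaged 376 ± 53.9 CPM in SRF-KO OLs and 574 ± 123 CPM in control OLs (log2 -0.61, adjusted p = 0.247). The peripheral myelin gene Pmp2 lay the other way, with 1.84 ± 0.440 CPM in SRF-KO OLs and 0.664 ± 0.259 CPM in control OLs (log2 1.45, adjusted p = 0.168). Of the other immediate-early genes, Btg2 averaged 28.3 ± 1.87 CPM in SRF-KO OLs and 18.7 ± 2.16 CPM in control OLs (log2 0.60, adjusted p = 0.114), and Jund had -0.79 (adjusted p = 0.119).

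Between the control stages these lists were split, on a background of 37.1% of genes tested passing as lower and 42.5% as higher. Of 23 other immediate-early genes tested, 13 passed as lower in control OLs and 7 as higher, with a median of -0.56 and a median of 0.10 over all genes tested. The 3 smallest p in that list belonged to Dusp6 (log2 -2.86), Btg2 (-2.60) and Klf10 (-2.17). Of the 13 NuRD genes 9 passed as lower and 2 as higher, led by Hdac1 at -2.24, Hdac2 at -1.82 and Rbbp7 at -1.62. Of the EGR2-activated Schwann cell genes, 7 of 10 passed as higher and 2 as lower. Mbp, the myelin basic protein gene, averaged 9537 ± 2730 CPM in control OLs and 13.7 ± 1.72 CPM in control OPCs (SD, n = 4 each), while Egr2 was at 0.541 CPM in the same control OLs. Of 18 EGR1 targets 9 passed as higher and 4 as lower. The 8 genes that EGR2 represses in Schwann cells split evenly, with 4 passing each way, Ccnd1 at -3.78 and Pou3f1 at -3.88 on the lower side and Ncam1 at 1.47 on the higher.

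Likeness of pattern was described by Pearson's r of log2 CPM over the 15 libraries, after the mean of each stage was subtracted. Values within each stage are over 7 OPC and 8 OL libraries and carry no test. Libraries share their knockout status and depth, and the genes named are the highest of 12665 for Egr1 and Nab2 and of 12666 for Egr2. For Egr1 they were Dock1 (r = 0.85 over all libraries, 0.93 in OPCs, 0.73 in OLs), Tgfb1i1 (0.83, 0.92 and 0.68) and Taf9 (0.78, 0.84 and 0.63), the 3 values in the same order for each gene. For Nab2 they were Foxk1 (0.91, 0.93 and 0.86), Shisa8 (0.88, 0.92 and 0.85) and Inpp5a (0.86, 0.93 and 0.64). For Egr2, which did not pass the count filter in OLs, they were Armc1 (0.82, 0.90 and 0.81), Hcfc1 (0.82, 0.88 and 0.75) and Lrig3 (0.81, 0.96 and 0.21). Among the members themselves, r on this scale was 0.88 for Nab2 and Egr4, 0.77 for Nab2 and Egr1, 0.78 for Egr4 and Egr1 and 0.71 for Egr2 and Egr1. Nab1 had 0.30 to Egr1, 0.34 to Nab2 and 0.49 to Egr2. Egr2 had 0.55 to Nab2 and 0.58 to Egr4. The Egr3 values, from at most 7 counts, ranged from 0.10 to 0.39. Egr4 had 0 or 1 count in each OL library and 1, 0 and 8 in SRF-KO OPCs, so its r values also rest on few counts. The likeness values share the knockout comparison in their 15 libraries and are no further evidence for it.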

How the data were processed

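PolyA RNA of 15 mouse culture samples was made into unstranded Smart-seq2 libraries and sequenced as single reads of 63 bases, per the labels' protocols. Per the submitters' processing notes, the tools were STAR and RSEM after bcl2fastq, with no versions stated, and both GRCm38 and Rnor_6.0 are named with no role. Each deposited file gives, per the file headers, an expected count (RSEM's estimate of reads per gene, with ambiguous reads shared out), TPM and FPKM for 45706 mouse gene IDs. The deposited FPKM was not used. TPM was used to order genes within OPC groups and is also given for Egr1 and Nab1 in OL groups. RSEM depth is limited by the library totals given in the report, and pooled-count intervals are 95% exact binomial and cover counting error only.

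After rounding, the expected counts went into edgeR 4.0.16 under R 4.3.3 (filterByExpr with a minimum count of 10, TMM, quasi-likelihood F-test, Benjamini-Hochberg at 0.05 over all genes passing the filter). Knockout effects were fitted within 1 stage, the stage effect on the 8 controls, and the difference of knockout effects on all 15 libraries. The SE is the size of the log2 fold change over the square root of its F statistic and so comes from the test. Alternatives were RLE size factors, library totals, DESeq2 1.42.0 with its own filter, limma 3.58.1 voom, no filter, at least 1 CPM in 3 libraries, a replicate block and leaving out each library. The fits were checked on simulated counts.

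Named were all members, Srf, from each list up to 3 genes that passed or else the 2 with the smallest p, and the 3 genes most like Egr1, Egr2 and Nab2 by Pearson's r (prior count 2). Other genes (markers, genes overlapping Nab2, and Mbp) were chosen after their values were seen. Some genes that the rule names are not reported here. The members and lists were chosen with earlier results of these data known. Symbols matched 45143 IDs, and coordinates are from GENCODE M21. Groups follow the titles. Mesenchymal stem cells and Olig2-Cre appear in the text on the series' design and in no sample label.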

Additional observations from a re-analysis of the deposited data

Results flagged for a closer look

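The knockout effect on Srf differed between stages by 3.68 on the log2 scale, OLs minus OPCs (adjusted p = 0.00465, edgeR test of the difference over 15 libraries). Srf averaged 3.06 CPM in SRF-KO OLs and 8.27 CPM in control OLs, and 0.210 CPM in SRF-KO OPCs and 7.86 CPM in control OPCs. The lincRNA gene Gm26904 overlaps Srf on the other strand, and how many OL reads of Srf come from it was not tested.

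In both of the next cases a library was far from the others of its group by Dixon's gap ratio. With 1 count in 1 library and 0 in the others that ratio is at its maximum by construction, so the flag carries no rate of chance. Egr4 reached 0.0796 CPM, a single count, in SRF-KO OL replicate 2 and was at 0 in the other 3. Egr3 reached 0.0929 CPM, likewise a single count, in control OL replicate 1 and was at 0 in the other 3.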

How the results depend on the processing

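Direction was stable for all 5 tested members in OPCs, for all 5 in the stage comparison and for all 5 in the difference between stages, under every alternative run. Within OLs, scaling by library totals turned Egr1 to 0.09 and Nab2 to 0.026, and leaving out 1 library gave Egr1 values from -0.223 to 0.003, the highest without SRF-KO OL replicate 1. Between control stages, library totals turned Srf to -0.026. Scaling by library totals shifts the median log2 fold change over all genes by 0.217 in OLs, -0.34 between stages, 0.215 in the difference and 0.018 in OPCs.

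Counts of genes called depended more on the setting. In OPCs, 9 genes were called, against 121 with DESeq2 and 101 without a filter, and 1 to 4 when 1 library was left out; library totals gave 6 higher and 7 lower, against 3 higher and 6 lower. In OLs, 45 were called, against 74 with library totals, 289 with DESeq2 and 129 without a filter, and 7 to 636 when 1 library was left out, the highest without SRF-KO OL replicate 4. With library totals the OL calls were 39 higher and 35 lower, against 10 higher and 35 lower. Between stages, 11970 were called, 6390 higher and 5580 lower, and library totals gave 5119 higher and 6843 lower. For the difference, 18 were called, against 166 with DESeq2, 30 with limma voom and 88 without a filter, 11 higher and 11 lower with library totals (7 higher and 11 lower with TMM), and 4 to 134 when 1 library was left out, the highest again without SRF-KO OL replicate 4. The cause was not tested.

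Same-numbered replicates did not deviate together (correlations from -0.282 to 0.089 over the comparisons), so numbers were not taken to pair samples. With the number as a replicate block, 2 genes were called in OPCs, 5 in OLs and 0 for the difference. Egr1 in OPCs then had a log2 fold change of -0.71 with adjusted p = 0.166, Egr2 -1.56 with adjusted p = 0.223, Srf in OLs adjusted p = 0.193 and the Srf difference 3.60 with adjusted p = 0.0866. Srf in OLs also lost its call in 6 of 8 cases with 1 library left out, with adjusted p up to 0.104 and a log2 fold change from -1.62 to -1.34. DESeq2 gave Egr4 in OPCs no adjusted p. Depth limits Egr3 throughout and Egr2 and Egr4 in OLs.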
